A study of Scophthalmus maximus with 8 samples.

Results

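Accessible chromatin was mapped by ATAC-seq in turbot (*Scophthalmus maximus*), a flatfish, and the regions described here are those that held a peak at every stage studied and that were split into several peaks at 1 or more of these stages. They were chosen by the measured positions of the peaks. Peaks of the 4 stage lists that shared at least 1 bp were joined into regions, and a region was kept when each list had a peak in it and at least 1 list had 2 or more. This gave 3054 regions, which were 10.7% (95% Wilson interval 10.4 to 11.1) of the 28454 regions open at all 4 stages and 2.67% of all 114193 regions. The other 25400 always-open regions held exactly 1 peak of each list and are used below for comparison. Every Wilson interval given here covers counting error only.

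The phylotypic stage was sampled at 3dpf (days post fertilization). The pre-metamorphic larva was sampled at 15dph (days post hatching), the metamorphic climax at 23dph and the post-metamorphic juvenile at 37dph. The 3dpf samples were whole animals, and at 15dph, 23dph and 37dph everything behind the cloaca had been cut away, so 3dpf differs from the later stages in material as well as in age. By the study's protocol, the collagenase digestion that freed the cells lasted longer at each later stage. Only the 3dpf embryos were treated with pronase to remove the egg envelope. Differences between stages therefore cannot be told apart from differences in this handling. The 8 samples were 2 biological replicates per stage, made from cells of many tissues together, and each pair of replicates gave 1 list of reproducible peaks. All values below are therefore per list, with no error between replicates, and the joint lists allow no test between stages. Values of single replicates were not analysed here. Regions are not replicates of a stage and were not tested as such.

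An ATAC-seq peak marks DNA that the Tn5 transposase can cut because it is not wrapped around a nucleosome, as is typical of active promoters and enhancers, and its summit is the point where cutting is densest. Elements that lie side by side can appear as a single broad peak or as separate peaks. This depends in part on whether, and over what length, the signal between them falls below the level that the peak caller requires. Chromatin that is open in every tissue and at every age is often found at promoters of broadly used genes. The genes and the sequences at the positions given here were not analysed here.

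The form of these regions differed between stages. At 3dpf, 837 of the 3054 regions (27.4%, 25.9 to 29.0) held 2 or more peaks, at 15dph 978 (32.0%, 30.4 to 33.7), at 23dph 1404 (46.0%, 44.2 to 47.7) and at 37dph 1862 (61.0%, 59.2 to 62.7). The remaining stages of a region held a single peak, and this peak could lie over several of the separate summits or over 1 of them. A single peak that contained at least 2 summits of another list was found in 1971 regions (64.5%) at 3dpf, 1723 (56.4%) at 15dph, 839 (27.5%) at the climax (23dph) and 240 (7.86%) at 37dph. A single peak over at most 1 summit of any split list was found in 246 regions (8.06%) at 3dpf, 353 (11.6%) at 15dph, 811 (26.6%) at the 23dph climax and 952 (31.2%) at 37dph. The broad form was thus the most frequent at 3dpf and 15dph, and several peaks were the most frequent form at 23dph and 37dph. Only a stage with 1 peak can show the broad form, which left 2217 regions at 3dpf and 1192 at 37dph. It is also judged against the other lists, which were split to different degrees. The shares of the broad form therefore partly restate the shares of split regions. The lists were of unequal length, with 94714 peaks at 3dpf, 57611 at 15dph, 47853 for 23dph and 46248 for 37dph. When each list was limited to its 46248 strongest peaks, 2364 regions were found. Of these, 14.0% were split at 3dpf, 28.1% at 15dph, 50.6% for 23dph and 74.2% for 37dph. The order was kept, but this limit leaves the 37dph list whole and takes the weaker peaks from the longer lists. In 2-peak regions at 3dpf, the weaker peak had a median rank of 58.7% from the strongest, which is beyond the limit. The limit thus lowers the 3dpf share by itself and cannot decide the part of list length. With the strongest 50% of each list, the shares were 32.0%, 30.7%, 46.1% and 59.3% in the order of the stages, and 15dph was lowest. In 2795 regions (91.5%) at least 1 stage had such a broad peak over separate summits of another stage. This share is largely set by the rule, since peaks of 1 list were joined only through peaks of other lists. In 3053 of the 3054 regions, 1 peak of a list overlapped 2 or more peaks of another list.

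**Figure D1:**
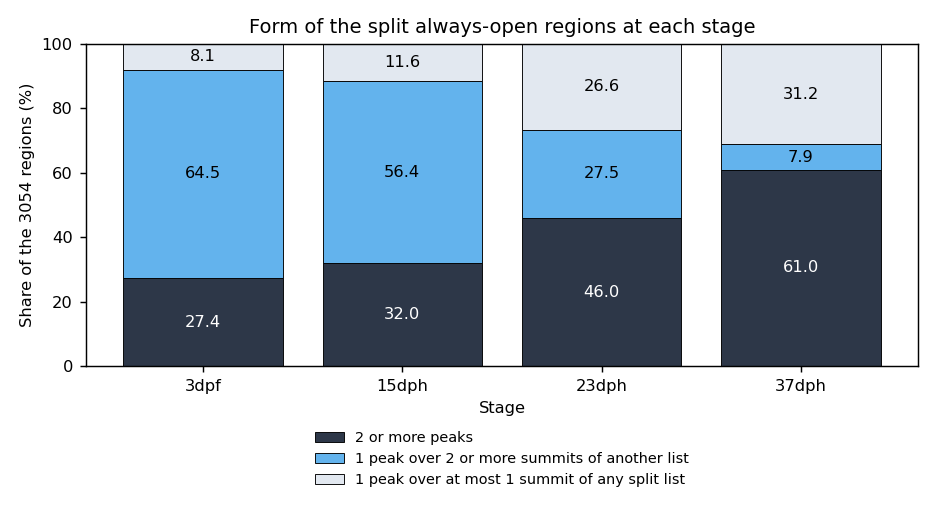
Share of the 3054 split always-open regions (y axis, %) in each of 3 forms at each stage (x axis): 2 or more peaks, a single peak over 2 or more summits of another list, or a single peak over at most 1 summit of any split list. The broad single peak makes up 64.5% at 3dpf and 7.86% at 37dph, where 61.0% of the regions held 2 or more peaks.

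Peak width moved with these shares. In the 25400 regions with 1 peak of each list, the median width was 259 bp at 3dpf, 249 at 15dph, 233 at the 23dph climax and 210 bp at 37dph. The part of this general difference in width in the number of split regions was not tested, and neither was that of read depth. The lists do not give the depth, and the read numbers that the study states for its libraries were not used here. The order of the stages also depended on how far apart the summits had to be. When only neighbouring summits at least 300 bp apart counted as separate, 1731 regions remained, of which 34.7% were split at 3dpf, 33.3% at 15dph, 48.4% in the 23dph list and 45.9% at 37dph, so that 37dph was no longer the highest.

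The 15 possible combinations of split stages were all present, and 1677 regions (54.9%, 53.1 to 56.7) were split at 1 stage only. The most frequent combination was several peaks at 37dph alone, in 766 regions (25.1%), followed by 23dph alone in 367 and by 23dph with 37dph in 315. Splits at 3dpf alone were found in 279 regions and at 15dph alone in 265. Another 253 regions had 1 peak at 3dpf and several at each later stage. Only 74 regions (2.42%, 1.93 to 3.03) were split at all 4 stages.

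**Figure D2:**
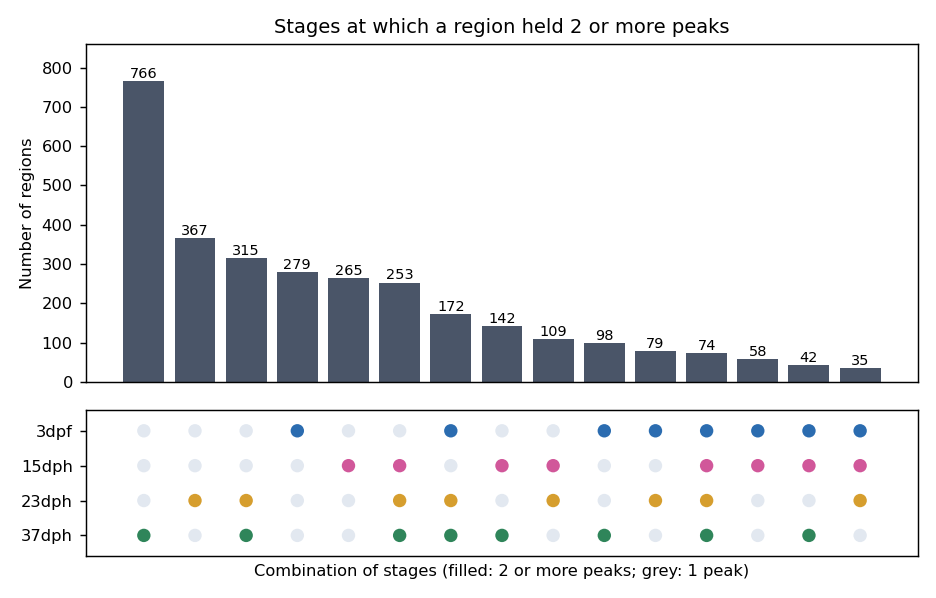
Number of regions (y axis) with each combination of split stages (x axis; filled points mark stages with 2 or more peaks, grey points stages with 1 peak). The tallest bar is several peaks at 37dph alone, with 766 regions, and the 74 regions split at all 4 stages are the 12th bar of 15.

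Read in the order of development, 1334 regions (43.7%, 41.9 to 45.4) started with 1 peak and held several from some later stage on to 37dph. Of these, 766 were split in the last list, 37dph, alone. The opposite order, several peaks from 3dpf on and 1 peak from a later stage to the end, was found in 372 regions (12.2%, 11.1 to 13.4). Of those, 279 were split in the first list, 3dpf, alone. Most regions of both orders thus rest on a single split list. In 741 regions (24.3%) several peaks were present only at 15dph, 23dph or both, and in 533 (17.5%) the region was split, held 1 peak and was split again. Between 3dpf and 37dph, 1476 regions had 1 peak first and several afterwards, and 451 had several first and 1 afterwards, a ratio of 3.27. For the steps between neighbouring stages this ratio was 1.22 between 3dpf and 15dph, 1.84 between 15dph and 23dph, and 1.78 between 23dph and 37dph. The excess of 1 direction over the other always equals the difference between the numbers of regions split at the 2 stages. These ratios therefore partly restate the numbers of split regions per list.

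Most regions with a broad peak at 3dpf held several peaks at 37dph. Of the 1971 regions with a broad peak over separate summits at 3dpf, 1343 (68.1%, 66.0 to 70.2) held several peaks at 37dph, 510 (25.9%) a single peak over at most 1 summit and 118 (5.99%) again a broad peak. Since each region had to be split at some stage to be chosen, a region with 1 peak at 3dpf had to be split later, and these shares are a description of the choice as well as of the regions. Of all 2217 regions with 1 peak at 3dpf, broad or not, 1476 held several peaks at 37dph, as did 61.0% of all 3054 regions. The share of 68.1% is thus not particular to the broad form, which is also judged by the summits of other lists, 37dph among them. Of the 837 regions already split at 3dpf, 386 (46.1%) were split at 37dph as well, and 359 (42.9%) had a single peak over at most 1 summit there.

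Most splits were into 2 peaks. In 2777 regions (90.9%) no list had more than 2 peaks, 263 regions reached 3 peaks in a list, 13 reached 4 and 1 reached 5. Regions with 3 or more peaks numbered 29 at 3dpf, 31 at 15dph, 74 at the 23dph climax and 185 at 37dph. Joined over the lists, the regions had a median width of 686 bp (interquartile range 543 to 863, n = 3054), compared with 288 bp (226 to 414) for the regions with 1 peak of each list. They covered 2.22 Mb in all, and the regions with 1 peak of each list covered 8.67 Mb.

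The strips between neighbouring peaks were short. The median gap was 48 bp at 3dpf (866 neighbouring pairs), 43 bp at 15dph (1010), 61 bp at the 23dph climax (1480) and 70 bp at 37dph (2059), and between 79.3% and 88.2% of the gaps in a list were under 100 bp. No 2 peaks of any list lay less than 11 bp apart, inside or outside these regions, and no peak within them was narrower than 100 bp. Neighbouring peaks less than 100 bp apart also occurred outside the chosen regions. Over the whole lists, 5577 of 94688 neighbouring pairs were this close at 3dpf and 3578 of 57584 at 15dph. The numbers were 2510 of 47824 at 23dph and 3273 of 46220 at 37dph. Close pairs were thus most numerous at 3dpf, which also had by far the most neighbouring pairs. Relative to all neighbouring pairs of a list, they were most frequent at 37dph. The chosen regions held 13.5% of all such pairs of the 3dpf list, 24.9% at 15dph, 46.9% at the climax (23dph) and 49.9% at 37dph. The remaining close pairs were not both part of 1 always-open region, because no peak of another list joined them or because a list had no peak there.

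Summits were spaced unevenly, and the same class of distance was the most frequent in the 4 lists. Short distances are limited by the smallest gap and the widths of the listed peaks, and the part of this limit in the spacing was not tested. The median distance between neighbouring summits was 378.5 bp at 3dpf (quartiles 286 and 527), 325 bp at 15dph (267 and 476), 316.5 bp at the 23dph climax (264 and 450) and 281 bp at 37dph (249 and 363). In classes of 50 bp, the class from 250 to 300 bp held the most pairs at every stage. It held 19.2% of the pairs at 3dpf, 26.3% at 15dph, 26.3% in the 23dph list and 35.4% at 37dph. The class from 350 to 400 bp held fewer, at 7.86%, 6.14%, 8.38% and 5.34%. A second, lower maximum stood at 450 to 500 bp in the lists of 3dpf (9.02%), 15dph (8.91%) and 37dph (5.97%), and was not seen at 23dph. It rests on few pairs, 78, 90 and 123, against 68, 62 and 110 in the class from 350 to 400 bp. At 23dph these classes held 109 and 124 pairs, and the difference of 23dph from the other lists was not tested. The pairs of neighbouring peaks outside these regions, taken up to 1400 bp apart, had their maxima in the same classes, with other heights. There the class from 250 to 300 bp held 5.83% at 3dpf, 8.62% at 15dph, 8.09% for 23dph and 11.2% for 37dph. The lowest class between the maxima was 350 to 400 bp, with between 3.67% and 4.50% in the 4 lists, while 450 to 500 bp held between 6.20% and 6.96%, and this included 23dph. At 3dpf the class from 450 to 500 bp was thus the higher of the 2 outside the chosen regions, unlike within them. Within the chosen regions, peaks of other lists had to link each pair, which disfavours long distances. The pairs outside had no such limit below 1400 bp, so the difference in heights is in part set by the rule.

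**Figure D3:**
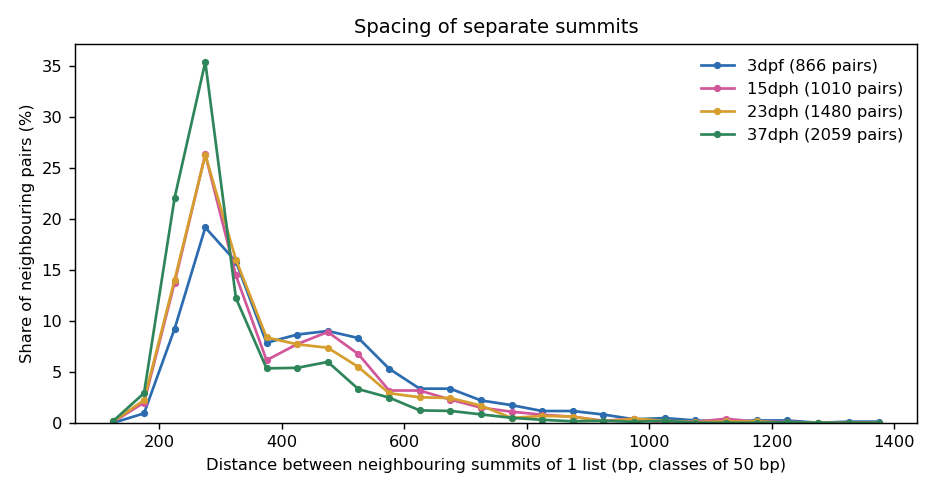
Share of neighbouring pairs (y axis, %) by the distance between their summits (x axis, bp, classes of 50 bp) in the split always-open regions, 1 line per stage. All 4 lines are highest at 250 to 300 bp, with 35.4% of the pairs at 37dph and 19.2% at 3dpf. Of these lines, 3 have a lower second maximum at 450 to 500 bp, which rests on few pairs.

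The shares of the forms changed with this spacing, taken as the widest distance between neighbouring summits of 1 list in a region. In the 512 regions with a spacing under 250 bp, 10.5% were split at 3dpf, 20.5% at 15dph, 29.7% at the climax (23dph) and 59.4% at 37dph, and a broad peak lay over the summits in 76.6% at 3dpf. In the 294 regions with a spacing of 600 bp or more, 53.1% were split at 3dpf, 50.7% at 15dph, 61.9% at the 23dph climax and 59.5% at 37dph, and 42.2% had a broad peak at 3dpf. At 37dph the highest share of split regions was that of the class from 250 to 300 bp, with 67.3% (64.0 to 70.5), and the other 4 classes held between 57.1% and 59.5%. The spacing was measured only in the lists in which a region was split, and median spacings differed between lists, so the stage of the split partly sets the class and these shares are a description only. A broad peak at 37dph was infrequent in each class of spacing, between 4.76% and 10.6% of the regions.

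Where a single peak lay over both summits of a 2-peak list, its length was near that of the peaks under it. For single peaks at 3dpf over 2 peaks at 37dph, 1219 of 1358 regions (89.8%, 88.0 to 91.3) had both summits inside, the broad peak had a median width of 615 bp, and the 2 peaks spanned 505 bp from the outer edge of the first to that of the last. The median ratio of this span to the broad width was 0.908. In the opposite direction, a single peak at 37dph over 2 peaks at 3dpf, both summits lay inside in 81 of 443 regions (18.3%, 15.0 to 22.2), with median widths of 575 bp for the single peak and 649 bp for the span. A single peak at 15dph held both summits of 23dph in 86.0% of 891 regions and both of 37dph in 86.4% of 1247. A single peak at 23dph did so for 38.6% of 492 regions split at 15dph and for 59.1% of 978 split at 37dph. Peaks of 1 list were joined only through peaks of other lists, so these shares are in part set by the rule. Widths and spans were compared only where both summits lay inside, which favours single peaks about as long as the span.

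The summit of the broad peak lay more often at the stronger of the 2 summits than at the weaker. Over all 6361 pairs of a broad stage and a 2-peak stage, which came from 2721 regions, the broad summit lay within 50 bp of the summit with the higher −log10 p in 74.1% (73.0 to 75.1) and within 50 bp of the weaker one in 14.0% (13.2 to 14.9). It lay elsewhere between them in 6.87% and beyond them in 5.06%, and in only 14 pairs (0.22%) did it fall in the gap that separated the 2 peaks. By combination of stages, the share at the stronger summit ranged between 55.6% (37dph over 3dpf, 81 pairs, with another 22.2% elsewhere between the summits) and 84.6% (15dph over 23dph, 766 pairs). It was 65.2% for 3dpf over 37dph, the combination with the most pairs. A region can enter with several pairs of stages, so these pairs are not independent. In the 4711 pairs with the broad summit at the stronger peak, the −log10 p of that peak was a median of 2.21 times that of the weaker one. In the 891 pairs with the broad summit at the weaker peak the ratio was 1.28. Single peaks that held 1 of 2 summits likewise mostly held the stronger, in 90.6% (89.5 to 91.6) of 2891 pairs of stages, and this share lay between 89.1% and 92.8% for single peaks of each stage.

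**Figure D4:**
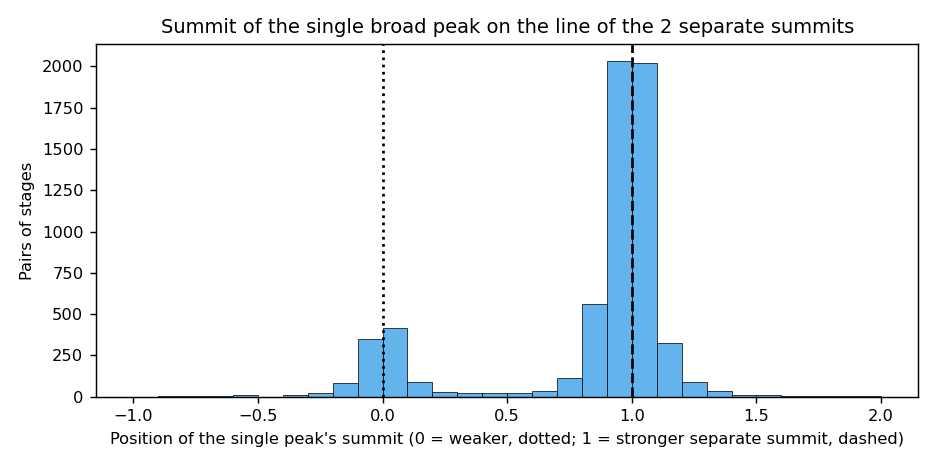
Position of the summit of a single broad peak (x axis, scaled so that 0 is the weaker and 1 the stronger of the 2 separate summits of another list, with no unit), as the number of pairs of stages (y axis). The bars gather at 1, where 74.1% of the 6361 pairs lay within 50 bp of the stronger summit, with a smaller group at 0 (14.0%) and few between.

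Where a region held 2 peaks at more than 1 stage, both summits mostly stayed in place, but less often in comparisons with 3dpf. Both summits lay within 50 bp in 61.6% of regions for 3dpf with 15dph and in 70.1% for 3dpf with 23dph. Among the 667 regions with exactly 2 peaks at both 23dph and 37dph, the median distance between corresponding summits was 12 bp, and in 525 (78.7%) both summits lay within 50 bp of their counterparts. The lowest share was that of 3dpf with 37dph, where this held for 177 of 305 regions (58.0%). The linking by overlap favours summits that lie close together. The values of strength were not part of the rule that chose the regions. Strength still bears on the choice, because every peak had to be called and reproducible, and the linking favours strong, wide peaks. In the regions with both summits in place, the same peak was the stronger at both stages in 421 of 525 (80.2%, 76.6 to 83.4) between 23dph and 37dph, in 275 of 330 (83.3%, 78.9 to 87.0) between 15dph and 23dph, and in 133 of 177 (75.1%, 68.3 to 80.9) between 3dpf and 37dph. Exchanges of the stronger peak were found mainly where the peaks were alike. Where the 2 peaks differed by at least 0.5 in log2 of their −log10 p at both stages, the stronger peak changed place in 17 of 249 regions between 23dph and 37dph, in 11 of 84 between 3dpf and 37dph and in 0 of 178 between 15dph and 23dph. For the last pair the upper Wilson limit is 2.11%.

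The peaks of a pair differed in strength to a varying degree. In regions with exactly 2 peaks at a stage, the fold enrichment over local background of the stronger peak (the one with the higher −log10 p) was a median of 7.30 at 3dpf, 6.05 at 15dph, 6.17 in the 23dph list and 6.29 at 37dph. For the weaker peak it was 4.51, 3.85, 4.13 and 4.14. Within a list, the higher fold enrichment of a pair was a median of 1.49 times the lower at 3dpf, 1.52 at 15dph, 1.43 at the climax (23dph) and 1.44 at 37dph. The −log10 p of the stronger peak was more than 2 times that of the weaker one in 51.6% of the pairs at 3dpf, 56.1% at 15dph, 47.8% for 23dph and 46.9% for 37dph. The median ratio was 2.07, 2.14, 1.94 and 1.91 in the same order. A cut at 2 lies near these medians, so the near-even division follows from the cut and does not show 2 kinds of pairs. Ranked by −log10 p within its list, with 0% as the strongest, the stronger peak had a median rank of 13.6%, 17.5%, 20.6% and 19.5% in the order of the stages, and the weaker peak of 58.7%, 62.9%, 63.2% and 67.2%. Between 28.98% and 40.1% of the weaker peaks stood in the stronger part of their list, above its median. Of all weaker peaks, 2.60% stood in the strongest 10% of the list at 3dpf, 0.634% at 15dph, 0.677% at the 23dph climax and 1.07% at 37dph.

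Where a list held a single peak in one of these regions, that peak ranked higher than the peaks of the regions with 1 peak of each list. Its median rank was 12.3% at 3dpf, 17.6% at 15dph, 23.4% for 23dph and 29.2% for 37dph, against 24.4%, 27.3%, 32.6% and 34.0% for the single peaks of those regions. The median fold enrichments were 7.48, 6.09, 5.98 and 5.67, against 6.39, 5.43, 5.38 and 5.44. The members' single peaks were also wider, with a median of 275 bp against 210 bp at 37dph. Only a wide region has room for separate peaks, and the share of split regions was higher in wider classes. Of always-open regions under 300 bp, 0 of 13599 were split (upper Wilson limit 0.0282%), of those from 500 to 600 bp 24.0% (22.3 to 25.7), and of those of 1000 bp or more 77.6% (73.7 to 81.0). Single peaks were also set against each other within classes of their own width. Of those from 100 to 300 bp, 0.784% at 3dpf, 1.00% at 15dph, 2.60% for 23dph and 3.19% for 37dph lay in regions split at another stage. From 300 to 500 bp these shares were 7.47%, 8.14%, 9.21% and 6.83%, from 500 to 700 bp 27.3%, 30.0%, 23.6% and 15.97%, and from 700 bp on 51.6%, 56.1%, 46.2% and 35.4%. Narrow single peaks at 37dph thus lay in split regions more often than narrow ones at 3dpf, and wide ones less often. A single peak can lie in a split region only through a split in another list. The other lists were split to different degrees, so these shares are in part set by the rule.

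The covered length of a region was largest at 3dpf. From the first to the last edge, the peaks of the 3054 regions spanned a median of 641 bp at 3dpf, 597 at 15dph, 518.5 at the 23dph climax and 470 bp at 37dph, and the bases inside peaks numbered 624, 577, 485 and 412. In the 766 regions split at 37dph alone, the span at 37dph, 494 bp, was not the shortest, since the single peak of 23dph measured 462 bp, that of 15dph 524.5 bp and that of 3dpf 555 bp. There the bases inside peaks at 37dph numbered 433. In the 279 regions split at 3dpf alone, the span was 675 bp at 3dpf, and the single peak measured 562 bp at 15dph, 376 bp at the 23dph climax and 290 bp at 37dph. These regions thus held a single peak that was still long at 15dph and shorter at 23dph and 37dph. In those split at 37dph alone, the span at 37dph was within the range of the single peaks of the other stages. Both groups were chosen by the stage of the split, which must hold at least 2 peaks and a gap. The span at that stage is therefore in part set by the choice. In regions split at 23dph alone or 15dph alone, the single peak at 37dph measured a median of 277 and 247 bp. Peaks of the regions with 1 peak of each list also narrowed, with medians of 259 bp at 3dpf and 210 bp at 37dph.

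Regions of each kind are named with their positions on the ASM1334776v1 assembly, counted from 1. Among the regions split at 37dph alone, the one with the highest −log10 p lies on chromosome 8 from 104950 to 105958. It held a single peak of 1009 bp at 3dpf (fold enrichment 6.54), of 942 bp at 15dph (7.14) and of 888 bp at 23dph (7.57). At 37dph it held a peak of 371 bp with a fold enrichment of 3.91 and, 64 bp further, one of 308 bp with 10.5, which ranked 33 of 46248. The summit of the second peak, at 105740, was at the same base as that of the single peak at 23dph and close to those at 3dpf (105729) and 15dph (105723).

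The region split at 3dpf alone with the highest −log10 p lies on chromosome 5 from 22613432 to 22614346. At 3dpf it held a peak of 518 bp with a fold enrichment of 3.87 and one of 350 bp with 13.8. At 15dph a single peak of 663 bp (8.91) reached over both summits, and at 23dph and 37dph single peaks of 316 bp (9.16) and 302 bp (8.41) lay over the stronger summit alone. No peak was thus listed at the weaker summit at the last 2 stages. The region with 1 peak at 3dpf alone that had the highest −log10 p lies on chromosome 12 from 8834240 to 8834919. Its single peak of 667 bp at 3dpf (14.5, rank 28 of 94714) was matched by 2 peaks at each later stage, with fold enrichments of 11.9 and 4.36 at 15dph, 11.8 and 3.85 at 23dph, and 10.7 and 5.58 at 37dph. The left peak was the stronger at each of these 3 stages, and the summits were 337, 365 and 301 bp apart.

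**Figure D5:**
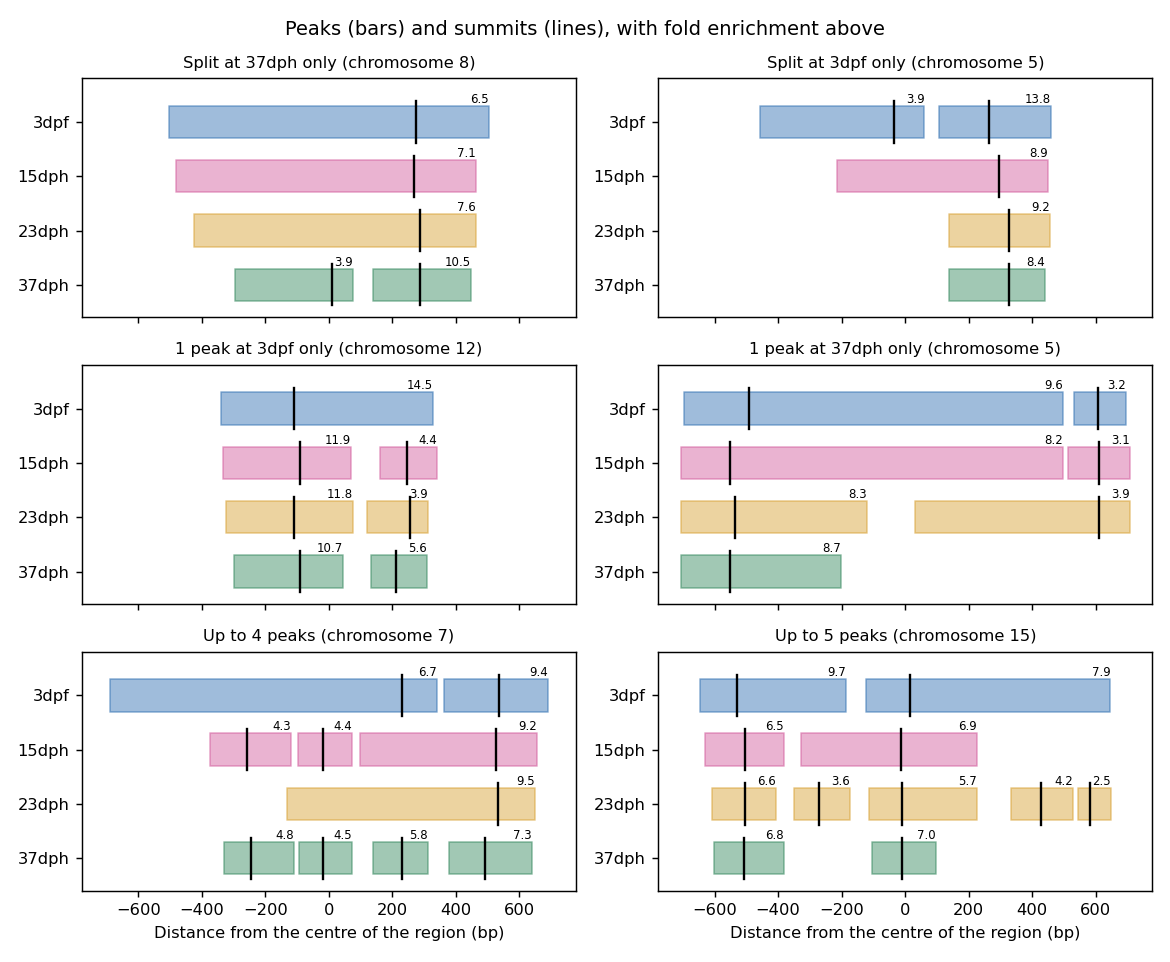
Peaks (bars) and summits (black lines) of 6 named regions at each stage (rows, with the deposited fold enrichment above each bar), placed by their distance from the centre of the region (x axis, bp). The chromosome 8 region has a single bar at 3dpf, 15dph and 23dph and 2 bars at 37dph, and the chromosome 12 region a single bar at 3dpf and 2 bars at each later stage.

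The region with 1 peak at 37dph alone and the highest −log10 p there lies on chromosome 5 from 2951286 to 2952700. It held peaks of 1193 and 163 bp at 3dpf (fold enrichments 9.57 and 3.25), of 1203 and 194 bp at 15dph (8.24 and 3.12) and of 587 and 677 bp at 23dph (8.30 and 3.92). At 37dph only the left peak was listed, with 505 bp and 8.70. The border between its peaks was at a different place at 23dph than at 3dpf and 15dph, while the summits of the right peak stayed within 3 bp of each other (2952600, 2952603 and 2952602). On chromosome 7 from 27327374 to 27328642, a single peak of 1255 bp at 23dph (9.28) lay over 2 peaks at 3dpf (9.63 and 7.22), 15dph (9.25 and 5.40) and 37dph (8.37 and 5.50), whose summits were 952, 898 and 964 bp apart. On chromosome 9 from 23310437 to 23311247, a single peak of 581 bp at 15dph (11.4, rank 6 of 57611) stood beside 2 peaks at 3dpf (12.5 and 4.58), 2 at 23dph (11.2 and 4.48) and 3 at 37dph (11.4, 5.38 and 3.19).

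In the regions named for splits at 15dph alone or 23dph alone, 1 peak was much weaker than the other. The same held for those named for 3dpf alone (3.87 against 13.8) and 37dph alone (3.91 against 10.5). All of these regions were picked by their strongest peak. At 23dph the weaker peak (4.38) was near the median of weaker peaks in that list (4.13). On chromosome 6 from 25377426 to 25378110, 15dph held a peak of 557 bp (11.5) and, 16 bp further, one of 100 bp (2.11) that ranked 57492 of 57611, and the other stages held single peaks of 685 bp at 3dpf (14.6), 497 bp at 23dph (10.5) and 311 bp at 37dph (9.42). The main summit was at 25377608 in all 4 lists. On chromosome 19 from 17210922 to 17211518, 23dph held peaks of 162 bp (4.38) and 355 bp (12.03), and single peaks of 596 bp at 3dpf (13.5) and 545 bp at 37dph (9.94) lay over both summits. The single peak of 15dph, with 351 bp (11.8), held only the stronger one.

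The region with the most peaks in 1 list lies on chromosome 15 from 10106427 to 10107720. At 23dph it held 5 peaks with fold enrichments of 6.60, 3.61, 5.70, 4.15 and 2.52, and summits 232, 262, 439 and 152 bp apart. The lists of 3dpf, 15dph and 37dph held 2 peaks each, with fold enrichments of 9.74 and 7.90, 6.54 and 6.86, and 6.77 and 7.03. Their summits fell at the first and the third summit of 23dph to within 24 bp, so the 3 further summits of 23dph had no summit of their own at another stage. On chromosome 7 from 1805078 to 1806454, 37dph held 4 peaks with summits 227, 247 and 262 bp apart and fold enrichments of 4.78, 4.51, 5.84 and 7.30. The same stretch held 2 peaks at 3dpf (6.72 and 9.44), 3 at 15dph (4.26, 4.36 and 9.23) and a single peak of 782 bp at 23dph (9.51).

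The other regions with 4 peaks in a list that the rule named lie on chromosome 6 from 16543938 to 16545552, chromosome 8 from 21813055 to 21814358 and chromosome 10 from 18949005 to 18950276. The first, the widest with 1615 bp, held 2, 2, 3 and 4 peaks in the order of the stages, and its last peak was the strongest in every list (fold enrichments 6.75, 5.89, 5.90 and 5.18). The second held 2, 4, 2 and 3 peaks, and its first peak was the strongest in every list (9.96, 8.81, 9.25 and 8.66). The last held a single peak of 1272 bp at 3dpf (5.90), 2 peaks at 15dph, 2 at the 23dph climax and 4 at 37dph, where the second was the strongest (4.73).

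Among the 74 regions split at all 4 stages, the one with the highest −log10 p at 15dph and at 23dph is the same, on chromosome 4 from 21617202 to 21618039. It held 2 peaks in each list, and the right peak was the stronger throughout, with fold enrichments of 9.37 at 3dpf, 8.13 at 15dph, 8.65 in the 23dph list and 8.02 at 37dph, while the left peak had 5.56, 3.34, 4.19 and 4.47. The summits were 504, 493, 536 and 564 bp apart. The region with the highest −log10 p at 3dpf, on chromosome 4 from 5444973 to 5446032, was likewise stronger on the right in each list (11.6, 7.71, 6.64 and 7.56). The one with the highest −log10 p at 37dph, on chromosome 11 from 20672518 to 20673468, held 2, 2, 3 and 3 peaks, and its rightmost peak was the strongest in each list (8.82, 8.42, 7.01 and 10.2).

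The split regions were spread over the genome. All 22 numbered chromosomes held some, and none lay elsewhere. Their share among always-open regions was lowest on chromosome 15, with 103 of 1168 (8.82%, 7.32 to 10.6), and highest on chromosome 5, with 166 of 1330 (12.5%, 10.8 to 14.4). The intervals of these extremes, picked from 22 chromosomes, did not overlap, and no test was made. A next always-open region within 1000 bp was found for 31.0% (29.4 to 32.6) of the split regions and for 30.9% (30.3 to 31.4) of the regions with 1 peak of each list, so the intervals overlapped. The median distance to the next always-open region was 4168 bp against 3316 bp.

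Splits were also found in regions that were not open throughout. Of the regions open at 2 stages 1.86% (1.66 to 2.08) had 2 or more peaks in a list, and of those open at 3 stages 3.75% (3.43 to 4.10), compared with 10.7% at 4 stages. A region open at 1 stage cannot be split under this rule, and each further list offers another peak that can join the others, so the increase is in part set by the rule. The members just inside the rule were few. When an overlap of at least 10 bp was required to link peaks, 3032 regions were found, and with 50 bp 2945. Just outside, 17 pairs of neighbouring always-open regions lay within 10 bp of each other and 1342 within 100 bp without a peak to join them.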

How the data were processed

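ATAC-seq libraries of 8 samples (2 biological replicates at each of 4 stages) were processed by the authors. According to their methods, reads were aligned with Bowtie2 to ASM1334776v1, only short nucleosome-free fragments were kept, cut positions were shifted for Tn5, and peaks were called per replicate with MACS2 and combined by the Irreproducible Discovery Rate (IDR). The submitters' processing notes also name bedtools. The deposited lists, 1 per stage, give for each peak a start, end and summit, the authors' fold enrichment over local background, the −log10 p-value, a q-value not used here, and the global IDR, whose largest value was 0.1. The authors' fold and −log10 p-value depend on each list's own libraries, and comparisons were drawn from them only within a list or as ranks. Where fold enrichments of several lists stand side by side, they describe each list, and their differences between stages are not to be read as changes in accessibility. The lists give no read depth, and the read numbers that the study states per library were not used here, so the precision of each peak edge was not estimated. The label of each sample names its list, and the 23dph list carries another day number in its name.

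Peaks of different lists sharing at least 1 bp were joined into regions. A summit was the start plus the deposited distance. Shares carry 95% Wilson intervals. The joining was tested on simulated lists. Alternatives changed the peak threshold, list length, overlap, spacing and sequences used. Named in the text are, at each stage, the region split there alone and the one with 1 peak there alone with the highest −log10 p, the 5 regions with the most peaks in a list, and for each list the region with the highest −log10 p among those split at all stages. The regions and this rule were chosen with earlier results of these data known. Gene positions, gene lists, GC content and motifs were planned and not run, as no genome or annotation of this assembly was used here. Python 3.11.15, numpy 2.4.6, pandas 2.3.3, statsmodels 0.14.6 and matplotlib 3.10.9 were used.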

Additional observations from a re-analysis of the deposited data

How the results depend on the processing

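Of 63 counts recomputed under 9 alternatives, 37 stayed within 1.5 times and 26 did not. Split regions were most numerous at 37dph in 8 of the 9 alternatives and least numerous at 3dpf in 7. The exceptions were summits at least 300 bp apart (23dph highest, 15dph lowest) and the strongest 50% of each list (15dph lowest). No paired analysis was possible because replicate values were not analysed here, each stage having 1 joint list, and no replicate was left out for the same reason.

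Counts below are given in the order all split regions, split at 3dpf, 15dph, 23dph and 37dph, split at 1 stage only, and split at all 4 stages. The strongest 50% of each list by −log10 p gave 921, 295, 283, 425, 546, 477 and 16, and limiting the global IDR to 0.01 left 1741, 495, 558, 748, 983, 1017 and 29. Both hold fewer peaks by construction. Summits at least 300 bp apart gave 1731 in all, 577 at 15dph, 838 at 23dph, 794 at 37dph, 992 at 1 stage only and 48 at all 4 stages. The same number of strongest peaks in each list gave 331 at 3dpf and 43 at all stages. This cut shortens the 3dpf list most and leaves that of 37dph whole. Joining peaks of 1 list less than 100 bp apart gave 522 at 3dpf and 19 at all stages. An overlap of at least 50% of the shorter peak gave 30 at all stages. Counting only regions with a single peak over 2 or more summits of another list, an alternative chosen after seeing the data, left 0 at all stages by construction, since such a region has a stage with 1 peak. With numbered chromosomes only, or only regions in which 1 peak overlaps several of another list, no count moved by over 1.5 times.

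The lists give neither depth nor the spread between replicates, and the read numbers stated for the libraries were not used here. Both limit every difference between stages in the number, width and splitting of peaks, and no alternative tried here removes this limit.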
